A study of Homo sapiens with 9 samples.

Results

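The 100 microRNA genes with the highest signal were examined in clone 15 of HL-60, a human cell line established from a promyelocytic leukaemia; this clone serves as a model of eosinophil precursors. They were selected from 1022 microRNA genes named on the array, host genes excluded, by the mean log2 signal over all 9 arrays of their brightest probe set, the group of probes summarised as 1 value. Their means ran from 7.33 to 11.14, which placed them between percentiles 64.3 and 99.0 of the 14778 named genes measured. The selection used the level and no difference between groups, so the levels are given as a description and only the differences were tested. Near the lower edge a gene can still enter through high signals in a group or on single arrays. A difference of such a gene is tied to its selection. At the lower edge of the selection lay MIR1537 at 7.35, MIR149 at 7.33 and MIR618 at 7.33. Just outside it were MIR4746 at 7.33, MIR324 at 7.32 and MIR3178 at 7.32.

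All cells carried a lentiviral construct switched on by 4-hydroxytamoxifen (4-OHT), a ligand of the oestrogen receptor. The construct coded for RhoH, a GTPase of blood cells, or for the fluorescent control protein GFP. The groups were uninduced RhoH cells, which received no 4-OHT, induced RhoH cells, which received 100 nM 4-OHT, and GFP cells, which also received 100 nM 4-OHT, each with 3 arrays that the design text calls biological replicates. No GFP cells without 4-OHT were analysed here, so an effect of 4-OHT and a difference between the transduced populations cannot be told apart from an effect of the construct. Whether separate transductions were used is not given in the sources used here, and p-values measure the spread between these samples.

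The targeted gene was examined first. RHOH had log2 signals of 5.23, 5.25 and 5.15 in the uninduced arrays, 5.60, 5.73 and 5.45 in the induced arrays, and 5.90, 5.94 and 5.94 in the arrays labelled GFP. Its signal was therefore higher after induction, by 0.38 (SE 0.09, adjusted p = 0.0451 by limma), but highest in the arrays labelled GFP. Induced minus GFP was −0.33 (adjusted p = 0.0717, not called) and uninduced minus GFP −0.72 (adjusted p = 0.000420), both by limma. All these signals lay under the array medians of named genes, 6.38 to 6.48. They do not bear out the labels, and whether they read the RNA of the construct was not tested. An exact two-sided permutation test gave p = 0.1 for each of the 3 comparisons, the smallest that 3 arrays against 3 allow. Which part of the transcript the RHOH probes read is not given in the sources used here, and the group labels were kept as given. Of the promyelocyte markers listed, 5 of 8 were measured, with means of 10.6 to 13.3. The eosinophil granule genes EPX and CLC had means of 8.70 and 8.05. The 1 T cell marker measured had a mean of 5.63, the 1 fibroblast marker 3.00 and the 2 epithelial markers 4.59 and 8.80, and no B cell or erythroid marker of the lists was measured as a named gene.

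A microRNA gene is transcribed as a long primary transcript, often as part of a host gene. The nuclease Drosha with DGCR8 cuts out a hairpin, exportin 5 carries it to the cytoplasm, Dicer cuts it again, and the mature strand guides an Argonaute protein to messenger RNAs through its seed, bases 2 to 8. In myeloid cells, miR-223 is a well-known regulator of granulocyte production and function, and miR-142 is made by blood cells of most lineages. Whole-transcript labelling of total RNA does not separate the mature microRNA from its precursor, from the primary transcript or from a host RNA, so the signals below are of the gene and not of the mature strand.

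Mature sequences were found in RefSeq (GRCh38.p14) for 89 of the 100 genes. Those of 6 of the 7 genes called in a comparison, all but MIR3143, are shown first because the group comparisons turn on them, with the seed in capitals.

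hsa-miR-223-3p: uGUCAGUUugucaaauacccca
hsa-miR-223-5p: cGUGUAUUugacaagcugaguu
hsa-miR-142-3p: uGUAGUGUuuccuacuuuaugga
hsa-miR-142-5p: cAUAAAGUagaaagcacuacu
hsa-miR-33b-5p: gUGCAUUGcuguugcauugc
hsa-miR-33b-3p: cAGUGCCUcggcagugcagccc
hsa-miR-3939: uACGCGCAgaccacaggauguc
hsa-miR-3198: gUGGAGUCcuggggaauggaga
hsa-miR-4737: aUGCGAGGaugcugacagug

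No seed was shared among these sequences. Over the 89 genes, 126 mature sequences held 120 different seeds, and 5 seeds occurred in more than 1 gene. The genes that shared a seed are shown next, because they bear on whether relatives behaved alike; capitals again mark the seed.

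hsa-miR-181b-5p: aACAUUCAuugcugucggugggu
hsa-miR-181d-5p: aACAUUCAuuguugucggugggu
hsa-miR-25-3p: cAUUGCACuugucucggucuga
hsa-miR-92b-3p: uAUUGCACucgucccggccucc
hsa-miR-3689a-5p: uGUGAUAUcaugguuccuggga
hsa-miR-3689b-5p: uGUGAUAUcaugguuccuggga
hsa-miR-3689f: uGUGAUAUcgugcuuccuggga
hsa-miR-3689a-3p: cUGGGAGGugugauaucguggu
hsa-miR-3689b-3p: cUGGGAGGugugauauuguggu

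The remaining shared seed joined MIR1301 and MIR5047. MIR3689A, MIR3689B and MIR3689F, with MIR3689D1, formed the 1 group of these genes whose neighbours lay within 10 kb on the RefSeq map. The 5p strands of MIR3689A and MIR3689B are the same sequence, so signals of such near-identical copies may be shared and are uncertain for a single copy.

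The first question was whether induction of RhoH changed the signal of these genes. None of the 100 passed an adjusted p under 0.05 in induced minus uninduced cells (limma, Benjamini-Hochberg over all 14778 genes), where 3.78% of all genes did, 3.02% higher and 0.751% lower. With no adjustment, 7 of the 100 and 2139 of all genes had a p under 0.05. For 6 of the 100 the arrays of both groups did not overlap, against 14.5% of all genes: MIR4737, MIR941-1, MIR1910, MIR33B and MIR1202 lay lower after induction and MIR3939 lay higher. The median difference of the 100 was −0.09 on the log2 scale, with 73 below 0 and 27 above, against a median of −0.00430 over all genes. That median turned to 0.03 when the induced replicate 3 array was left out.

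MIR33B, which lies within SREBF1, the gene of a sterol-sensing transcription factor, came closest to the threshold. Its log2 signals were 8.51, 8.66 and 8.85 uninduced, 8.19, 8.33 and 7.84 induced, and 7.998, 7.92 and 7.89 in the arrays labelled GFP. All uninduced arrays lay above all others, and the induced and GFP arrays overlapped. Induced minus uninduced was −0.55 (SE 0.13, adjusted p = 0.0503 by limma). Over 20 alternative analyses this adjusted p ran from 0.0188 to 0.190, and 6 of them, such as array weights at 0.0188 and leaving out induced replicate 2 at 0.0374, put it under the threshold.

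Against the arrays labelled GFP, 3 of the 100 were called in induced cells, 1 higher and 2 lower. Over all genes 4.49% were called, 1.74% higher and 2.75% lower. The arrays did not overlap for 17 of the 100, 8 higher and 9 lower, against 22.5% of all genes. MIR223 was higher, and MIR3939 and MIR3198-1 were lower. The median difference was 0.05, beside 0.03 over all genes, and it was −0.10 without the induced replicate 1 array.

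In uninduced cells against the arrays labelled GFP, 7 of the 100 were called, 5 higher and 2 lower. Over all genes the shares were 15.3% in all, 6.01% higher and 9.27% lower. The 5 higher genes were MIR142, MIR33B, MIR223, MIR4737 and MIR3143, and the 2 lower were MIR3939 and MIR3198-1. Arrays did not overlap for 38 of the 100, 24 higher and 14 lower, near the 37.3% of all genes. The median difference was 0.13, with 66 above 0, and fell to 0.0232 without the uninduced replicate 1 array. The GFP arrays are shared by both of these comparisons, and each group of RhoH arrays also enters the first, so the 3 are not independent.

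**Figure D1:**
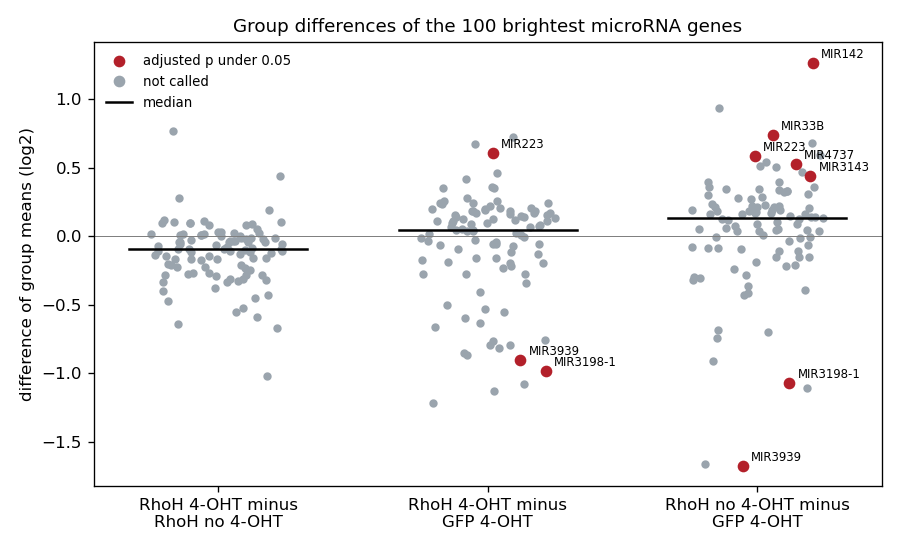
Difference of group means on the log2 scale (vertical axis) for each of the 100 brightest microRNA genes in the 3 comparisons; red points are genes at an adjusted p under 0.05 (limma), grey points are the others and black lines are medians (−0.09, 0.05 and 0.13). No gene is red in the first comparison, 3 are in the second and 7 in the third.

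For reference, of the 5032 named genes whose mean lay in the same range, 8.03%, 7.95% and 29.9% were called in the 3 comparisons, in the order above. The median within-group SD was 0.239 for the 100 genes and 0.142 for genes of that range. Among the 922 dimmer microRNA genes, with a median SD of 0.212, 0, 12 and 30 were called. The part of the spread in these counts was not tested.

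MIR223, the second brightest by mean and the best-known myeloid microRNA gene of the set, was higher in both RhoH groups than in the arrays labelled GFP. It measured 10.39, 10.41 and 10.47 uninduced, 10.36, 10.52 and 10.44 induced, and 9.68, 9.88 and 9.94 in the arrays labelled GFP. Both RhoH groups overlapped each other and lay wholly above the GFP arrays. The difference was 0.60 (SE 0.09, 1.52-fold, adjusted p = 0.00554) in induced and 0.59 (SE 0.09, adjusted p = 0.00185) in uninduced cells by limma. Induced minus uninduced was 0.02 (SE 0.09, adjusted p = 0.971). Both calls against GFP held in all 20 alternatives.

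MIR142, which lies within MIR142HG, had its highest signals in uninduced cells. The values were 7.66, 8.61 and 8.60 uninduced, 7.68, 7.82 and 7.59 induced, and 6.76, 7.32 and 6.99 in the arrays labelled GFP. Every GFP array lay under the lower edge of the selection, 7.33, and every RhoH array above it. The place of MIR142 in the set therefore leaned on the RhoH arrays, and its differences from GFP are tied to its selection. The uninduced replicate 1 array stood with the induced arrays, almost 1 log2 unit under the others of its group. Uninduced minus GFP was 1.27 (SE 0.24, 2.41-fold, adjusted p = 0.00514 by limma). Induced minus GFP was 0.68 (adjusted p = 0.182) with no overlap of arrays, and induced minus uninduced was −0.59 (adjusted p = 0.273). Without uninduced replicate 1 the last became −0.91 and passed the test at an adjusted p of 0.0182.

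MIR3939 was the gene with the lowest difference from the GFP arrays among those called. Its signals were 8.37, 8.59 and 8.64 uninduced, 9.56, 9.58 and 8.76 induced, and 10.19, 10.19 and 10.24 in the arrays labelled GFP. The 3 groups did not overlap, and induced replicate 3 lay close to the uninduced arrays. Uninduced minus GFP was −1.68 (SE 0.19, adjusted p = 0.000248), a 3.19-fold lower signal, and induced minus GFP was −0.91 (SE 0.19, adjusted p = 0.0276), both by limma. Induced minus uninduced was 0.77 (adjusted p = 0.0609), and without induced replicate 3 it was 1.04 (adjusted p = 0.00113). The induced minus GFP call was lost in 5 alternatives, at adjusted p of 0.0683 to 0.113: with only the 6 arrays compared, with all probe sets tested, and without any 1 of the GFP arrays.

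MIR3198-1, within BID, the gene of a protein that promotes cell death at mitochondria, was lower in both RhoH groups. It measured 7.40, 7.98 and 7.62 uninduced, 7.61, 8.16 and 7.48 induced, and 8.57, 8.93 and 8.71 in the arrays labelled GFP. All GFP arrays lay above all RhoH arrays, and both RhoH groups overlapped. The difference from GFP was −1.07 (SE 0.20, adjusted p = 0.00446) in uninduced and −0.99 (SE 0.20, adjusted p = 0.0204) in induced cells by limma. The second of these calls was lost in 7 alternatives, at adjusted p of 0.0520 to 0.105: with all probe sets tested, without any 1 of the GFP arrays, without induced replicate 1 or 3, and without both RhoH replicate 1 arrays.

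MIR4737 and MIR3143 were the other genes called in uninduced cells. MIR4737, the brightest of the set, measured 11.69, 11.23 and 11.35 uninduced, 11.22, 10.93 and 11.12 induced, and 10.86, 10.92 and 10.91 in the arrays labelled GFP. Its groups did not overlap, though neighbouring groups were separated by under 0.02. Its difference of 0.53 (SE 0.12, adjusted p = 0.0168 by limma) was not called without any 1 of the GFP arrays, at adjusted p of 0.0569 to 0.0664. MIR3143 measured 9.21, 9.32 and 9.14 uninduced, 9.20, 9.10 and 9.10 induced, and 8.77, 8.67 and 8.92 in the arrays labelled GFP. Both RhoH groups lay above GFP, by 0.44 (SE 0.09, adjusted p = 0.00926) uninduced and 0.35 (SE 0.09, adjusted p = 0.0682) induced. Without GFP replicate 2 the first of these had an adjusted p of 0.0510.

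**Figure D2:**
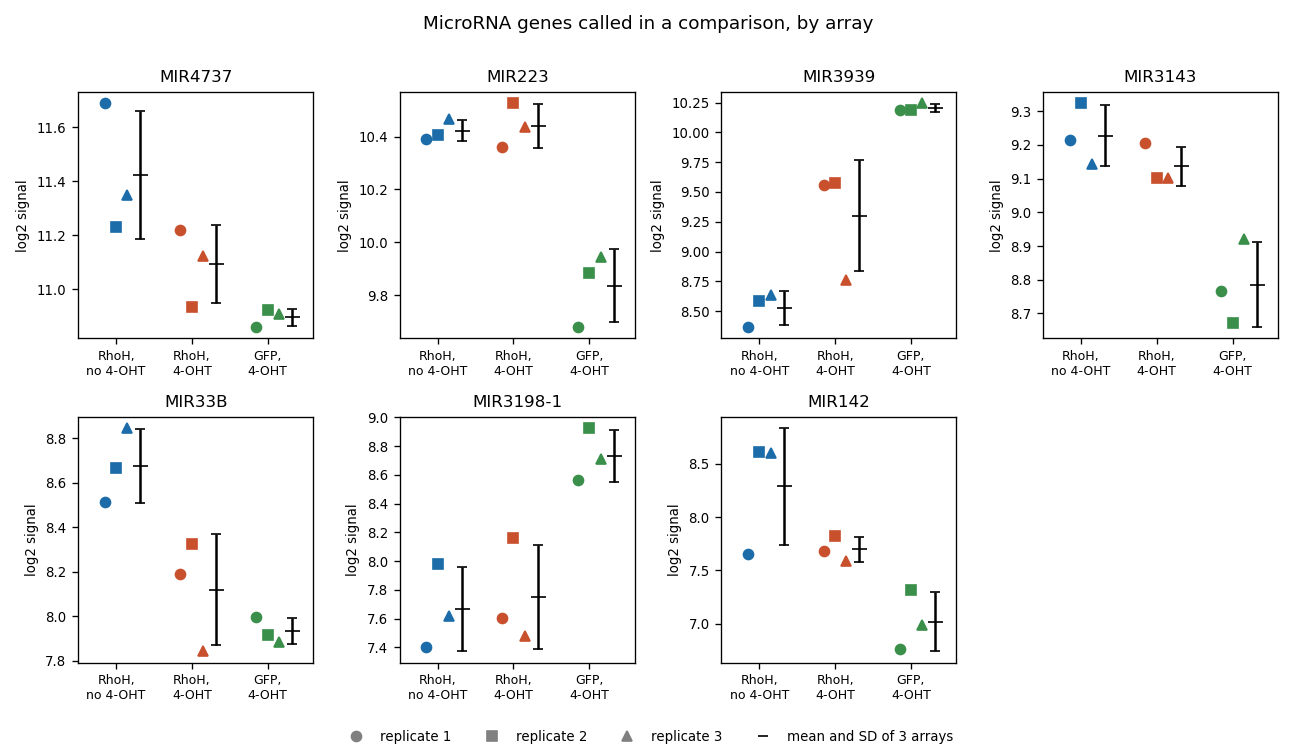
Log2 signal (vertical axis, a separate scale for each gene) of the 7 microRNA genes called in any comparison, in RhoH cells without 4-OHT (blue), RhoH cells with 4-OHT (orange) and cells labelled GFP with 4-OHT (green); symbols mark replicates 1 to 3 and bars the mean and SD of 3 arrays. MIR223 is alike in both RhoH groups, at 10.42 and 10.44 against 9.84, while MIR3939 has means of 8.53, 9.30 and 10.21.

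Granule genes of the lineage also differed from the arrays labelled GFP. MPO, AZU1, PRTN3 and CTSG, 4 of the 5 promyelocyte markers measured, and EPX and CLC, the 2 of 7 eosinophil markers measured, were called higher in both RhoH groups, as MIR223 was; MIR142 was called in the uninduced group. After induction CTSG was called lower (−0.83, adjusted p = 0.00703 by limma) and EPX had a difference of −0.75 (adjusted p = 0.0560), beside 0.02 for MIR223 and −0.59 for MIR142, neither called. The median difference over the 5 promyelocyte markers was 1.33 induced and 1.28 uninduced. In this bulk RNA, more cells of a type and more RNA per cell cannot be told apart. The part of these markers in the microRNA differences was not tested.

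The genes of other well-known families among the 100 showed no call. In the list of myeloid microRNA genes, 29 of 33 were measured and 3 were among the 100, namely MIR223, MIR142 and MIR99B. No further gene of the list was called in any comparison, where 3.78%, 4.49% and 15.3% of all genes were. The median level of the 29 was 4.68. MIR99B measured 8.29, 7.85 and 8.20 uninduced, 8.02, 7.60 and 8.01 induced, and 7.73, 7.71 and 7.85 in the arrays labelled GFP. The induced arrays overlapped both other groups, and the lowest uninduced array lay just above the highest array labelled GFP. Uninduced minus GFP was 0.35 (SE 0.14, adjusted p = 0.155 by limma).

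Of the miR-181 family, 6 of 6 genes were measured and MIR181B1 and MIR181D were among the 100. MIR181B1 measured 9.26, 9.34 and 9.18 uninduced, 9.67, 9.56 and 8.56 induced, and 8.82, 9.42 and 9.41 in the arrays labelled GFP, with group means of 9.26, 9.26 and 9.22. MIR181D, with the same seed, had means of 7.73 ± 0.09, 7.65 ± 0.17 and 7.54 ± 0.17 (SD, n = 3 each). Neither gene passed the test in any comparison. MIR25, of the clusters related to miR-17, had means of 7.76 ± 0.06, 7.66 ± 0.26 and 7.82 ± 0.22, and MIR30E 7.53 ± 0.03, 7.42 ± 0.13 and 7.49 ± 0.16.

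MIR25 was 1 of 9 measured genes of its list of 15, whose median level was 2.73, and MIR30E 1 of 6. The let-7, miR-15/16, miR-23/27/24 and miR-29 lists, with 11, 7, 6 and 4 genes measured, had no gene among the 100. No gene of these 7 family lists was called in any of the 3 comparisons, where 3.78%, 4.49% and 15.3% of all genes were. Among the 922 dimmer microRNA genes the shares were 0%, 1.30% and 3.25%. Median levels of the 7 lists ran from 2.73 to 6.38, and low signals are compressed. Host genes were not part of these lists. Of 25 genes named as microRNA hosts, 2 were called higher and 2 lower in uninduced minus GFP, where 6.01% and 9.27% of all genes were. Among the lower was MIR17HG, by −1.37 (adjusted p = 0.00140 by limma), so a host transcript named for the miR-17 family did differ. The other was MIR124-1HG, by −4.83 (adjusted p = 2.20e-08 by limma). In the remaining comparisons MIR124-1HG was the 1 gene of the 25 called. It was higher after induction by 3.51 (adjusted p = 4.96e-07) and differed by −1.32 in induced minus GFP (adjusted p = 0.000255), both by limma. Of all genes, 3.02% and 2.75% were called in these directions. Probe sets differ in affinity, so absence from the 100 does not rank the microRNAs by abundance.

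The rest of the 10 brightest were MIR3916, MIR3907, MIR2909, MIR574, MIR941-1, MIR647 and MIR663B, and none was called. MIR3916 measured 9.80, 9.86 and 9.84 uninduced, 10.11, 10.13 and 9.32 induced, and 10.09, 10.15 and 10.15 in the arrays labelled GFP. MIR574 measured 10.31, 9.66 and 9.64 uninduced, 10.21, 9.60 and 9.38 induced, and 9.40, 9.42 and 9.30 in the arrays labelled GFP. MIR3907 measured 10.48, 9.66 and 9.83 uninduced, 10.44, 9.72 and 9.68 induced, and 9.79, 9.62 and 9.71 in the arrays labelled GFP. For MIR3907 and MIR574 the replicate 1 array of both RhoH groups was the high one, and for MIR3916 the induced replicate 3 array was the low one.

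These single arrays set many of the 100 genes apart. Over the 100 genes, correlations between arrays of the same group were 0.757, 0.774 and 0.975 uninduced and 0.822, 0.732 and 0.670 induced, but 0.966 to 0.975 in the arrays labelled GFP. Over all genes no such correlation was below 0.983. The 100 genes span a narrower range of levels than all genes, which by itself lowers a correlation, so these values are not alike in scale. The induced replicate 1 array lay above its group mean for 81 of the 100 genes and induced replicate 3 lay below it for 81. Median deviations were 0.24 and −0.25 on these arrays, beside −0.04 and 0.05 over all genes.

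The widest examples, named after their values were seen, fell into different patterns. MIR3689B measured 9.66, 6.81 and 6.94 uninduced, 8.93, 6.82 and 7.03 induced, and 6.87, 6.70 and 7.05 in the arrays labelled GFP. MIR3689A, with the same 5p strand, measured 9.59, 7.68 and 7.78, then 9.45, 7.66 and 7.81, then 7.83, 8.03 and 7.99 in the same order. Both were high on replicate 1 of each RhoH group and on no other array. MIR3689D1 and MIR3689F, the others of the cluster, also had their highest signals on those arrays. Every other array of MIR3689B lay under the lower edge of the selection, 7.33. Its place in the set therefore leaned on those replicate 1 arrays.

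MIR606 had a different pattern, low on induced replicate 3, with 8.11, 8.48 and 8.47 uninduced, 9.52, 9.80 and 7.05 induced, and 9.99, 10.17 and 9.88 in the arrays labelled GFP. MIR4742 measured 6.47, 7.30 and 7.32 uninduced, 7.95, 7.58 and 5.50 induced, and 8.32, 8.21 and 7.88 in the arrays labelled GFP. In both genes induced replicate 3 was the lowest of all 9 arrays. Every uninduced array of MIR4742 lay under the lower edge of the selection, 7.33, and every GFP array above it. Its place in the set therefore leaned on the GFP arrays. On that array 8 of the 100 genes deviated by at least 1 log2 unit from their group mean, against 0.217% of all genes. MIR548H2 showed both patterns, with 8.77, 7.36 and 7.22 uninduced, 8.71, 7.35 and 5.74 induced, and 7.42, 7.19 and 7.35 in the arrays labelled GFP. Its place in the set leaned on the replicate 1 arrays of both RhoH groups.

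**Figure D3:**
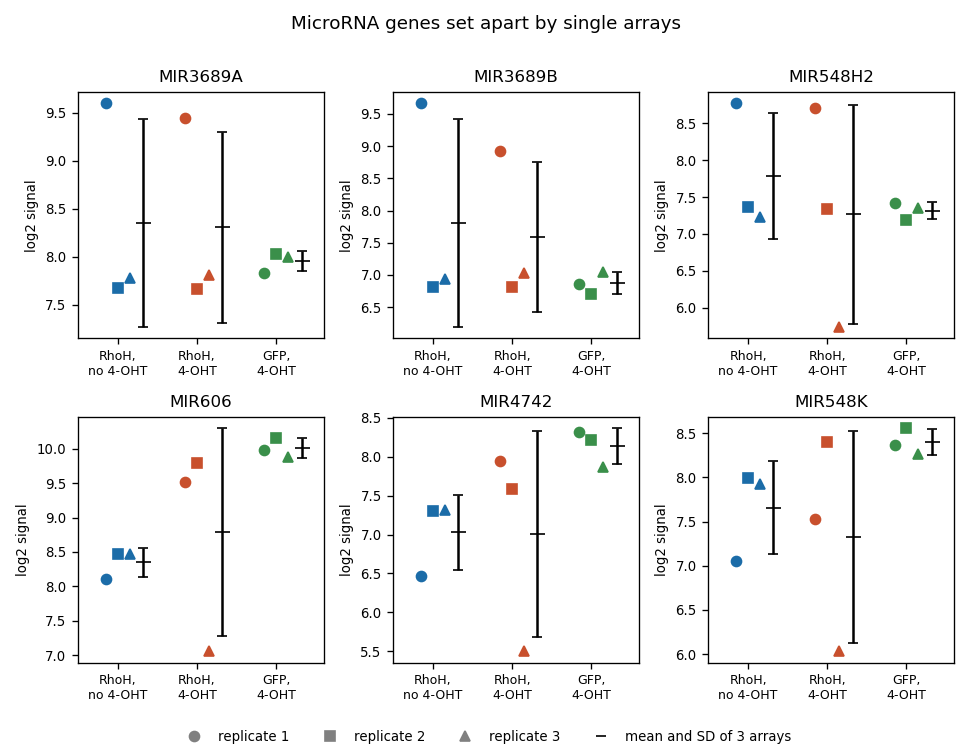
Log2 signal (vertical axis, a separate scale for each gene) of 6 microRNA genes with wide spread between replicates, chosen after their values were seen, with colours, symbols and bars (mean and SD of 3 arrays) as in the plot of called genes. MIR3689A, MIR3689B and MIR548H2 are high on replicate 1 (circles) of both RhoH groups, and MIR548H2, MIR606, MIR4742 and MIR548K are low on replicate 3 (triangle) of the induced group.

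Because of these arrays, the counts were also taken with uninduced replicate 1 and induced replicate 3 left out, a choice made after seeing the data. The counts called were then 4, 5 and 16 in place of 0, 3 and 7, where 5.62%, 6.65% and 18.6% of all genes were called. In induced minus uninduced cells the 4 were MIR3939 and MIR606, higher, and MIR33B and MIR142, lower. Of the 16 in uninduced minus GFP, 6 were higher and 10 lower. Without induced replicate 3 alone the counts were 2, 2 and 16, beside 4.51%, 3.96% and 18.1% of all genes.

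The deviations were set against base composition. The hairpin, here the annotated folded stretch that holds the mature sequence, was found in RefSeq for 84 of the 100 genes. Over these 84, the correlation of an array's deviation with hairpin GC content was −0.23, −0.63 and 0.67 on induced replicates 1, 2 and 3, and 0.40, −0.41 and −0.31 on uninduced replicates 1, 2 and 3. On induced replicate 3 the median deviation was −0.51 for the 42 hairpins under 60% GC and −0.09 for the 42 at or above it. On the arrays labelled GFP the correlations were 0.28, −0.34 and 0.08, with deviations of small size. Deviations within a group sum to 0, so the 3 values of a group are not independent. Over the 761 dimmer microRNA genes with a hairpin the correlation on induced replicate 3 was 0.11. The part of base composition in the differences between groups was not tested.

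**Figure D4:**
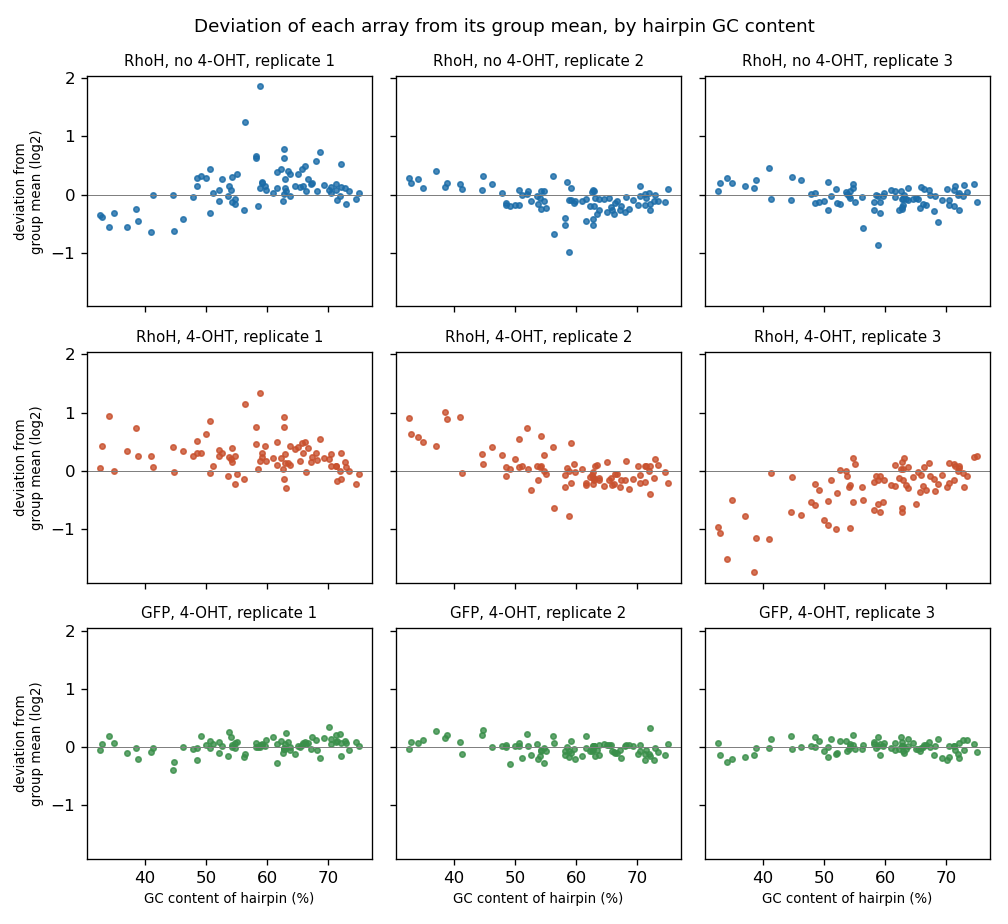
Deviation of each array from the mean of its group on the log2 scale (vertical axis) against hairpin GC content in percent (horizontal axis), 1 panel for each of the 9 arrays and 1 point for each of 84 microRNA genes; all panels share their axes. Low-GC hairpins lie below 0 on induced replicate 3 (r = 0.67) and above 0 on induced replicate 2 (r = −0.63), while the points of the arrays labelled GFP stay close to 0.

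High GC content was also a shared feature of the set. Median hairpin GC was 60.4% over the 84 genes and 46.8% over the 761 others, and 50.0% against 12.2% of hairpins had at least 60% GC. Median hairpin lengths were 84.5 and 83.0 bases. Across 845 microRNA genes the mean signal rose with hairpin GC (Pearson's r = 0.59, Spearman's rho = 0.61, a description across genes that share arrays and are not replicates). The set was chosen by signal, so its higher GC is not a finding apart from that trend. Within the 84 genes, where the choice narrows the range of signal, no such trend was seen (r = −0.06). Signal depends on the probes' own affinity as well as on RNA, so this relation was not read as one of abundance.

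Host genes were examined because a microRNA gene within another gene's span can share its transcript. RefSeq placed 61 of the 93 genes with a known strand within a gene on the same strand, and for 42 the host was measured as a named gene. Over the 9 arrays the correlation of the microRNA gene with its host ranged from −0.86 to 0.90, with a median of 0.25, and was above 0.5 for 14 of the 42. These values share arrays and group differences and are a description.

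Some pairs moved in the same direction. BID, host of MIR3198-1, measured 9.32, 9.26 and 9.34 uninduced, 9.25, 9.26 and 9.38 induced, and 9.79, 9.68 and 9.67 in the arrays labelled GFP. It was called lower in both RhoH groups, by −0.41 in each (adjusted p = 0.0183 induced and 0.00656 uninduced by limma), beside −0.99 and −1.07 for MIR3198-1. SDCCAG8, a centrosome gene and host of MIR4677, was lower in uninduced cells than in the arrays labelled GFP by −0.73 (adjusted p = 0.0146). MIR4677 itself had a difference of −0.70 (adjusted p = 0.148), and this pair had the highest correlation, 0.90.

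In other pairs the difference was present in the host and not called in the microRNA gene, or the reverse. ZNF141, a zinc finger gene and host of MIR571, measured 4.86, 4.44 and 4.96 uninduced, 4.86, 4.86 and 4.78 induced, and 8.01, 8.15 and 8.03 in the arrays labelled GFP. It was lower by −3.31 in uninduced and −3.23 in induced cells (adjusted p = 2.57e-07 and 1.85e-06 by limma). MIR571 measured 8.47, 8.01 and 8.09 uninduced, 8.68, 8.27 and 7.22 induced, and 8.91, 8.90 and 8.81 in the arrays labelled GFP. Its arrays also lay wholly below GFP, with differences of −0.68 and −0.81 that were not called (adjusted p = 0.185 and 0.205).

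SREBF1, host of MIR33B, did not follow it: its differences were 0.33 induced minus uninduced and −0.18 uninduced minus GFP, neither called, where MIR33B had −0.55 and 0.74. Their correlation was −0.40. MIR2909 and its host AATF had the lowest correlation, −0.86. LRMDA, host of MIR606, was called lower in uninduced cells than in the arrays labelled GFP (−1.02, adjusted p = 0.00219) and higher after induction (0.79, adjusted p = 0.0280), beside −1.66 and 0.44 for MIR606, neither called. WDR26, host of MIR4742, was called lower in uninduced cells (−0.96), beside −1.11 for MIR4742, a gene whose place in the set leaned on its high GFP arrays.

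Over the 42 pairs, 3, 4 and 13 hosts were called in the 3 comparisons, where 3.78%, 4.49% and 15.3% of all genes were. The microRNA gene had a difference of the same sign in 3, 3 and 9 of these pairs. The 3 hosts called after induction were LRMDA and NOTCH1, higher, and LYST, lower. In uninduced cells against GFP, 3 hosts were higher, UCKL1, CHLSN and LYST, and 10 were lower.

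**Figure D5:**
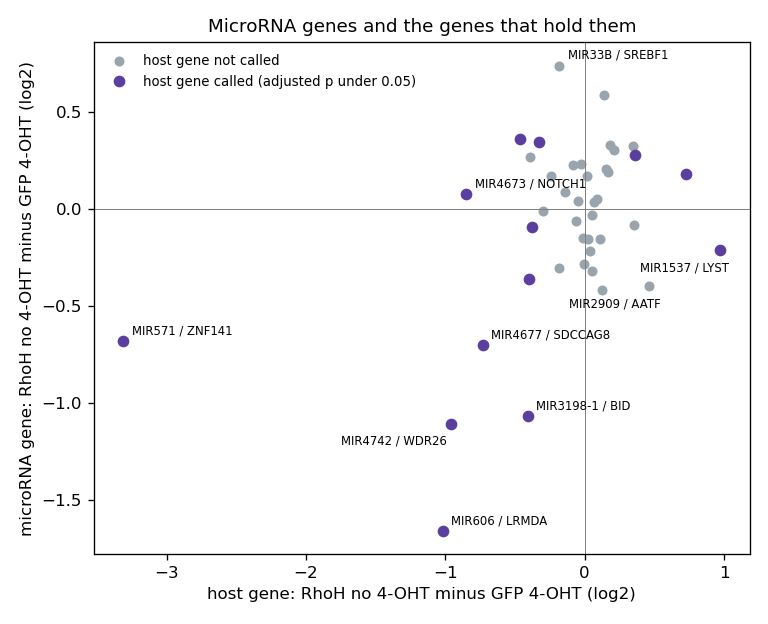
Difference of uninduced RhoH cells from cells labelled GFP on the log2 scale, for 42 microRNA genes (vertical axis) and the genes that hold them on the same strand (horizontal axis); purple points are pairs whose host was called by limma. ZNF141 lies at −3.31 with MIR571 at −0.68, and SREBF1 at −0.18 with MIR33B at 0.74.

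Genes that make and turn over microRNAs were followed as the pathway's other part. Of 45 listed genes 26 were measured as named genes, and 1 was called higher and 1 lower after induction, where 3.02% and 0.751% of all genes were. XPO5, the gene of exportin 5, had means of 10.01 ± 0.14 uninduced, 9.39 ± 0.21 induced and 9.33 ± 0.04 in the arrays labelled GFP (SD, n = 3 each). It was lower after induction by −0.61 (SE 0.12, adjusted p = 0.0183) and higher in uninduced cells than in the GFP arrays by 0.67 (adjusted p = 0.00316) by limma. ZSWIM8, part of a ligase that acts in target-directed microRNA decay, ran the other way, with means of 7.71 ± 0.16, 8.12 ± 0.02 and 8.44 ± 0.05. It was higher after induction by 0.40 (adjusted p = 0.0466) and lower in uninduced cells than in the GFP arrays by −0.73 (adjusted p = 0.000563).

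In uninduced cells against the GFP arrays 3 of the 26 were higher and 3 lower, where 6.01% and 9.27% of all genes were. Beside XPO5 and ZSWIM8 these were HNRNPA1, an RNA-binding protein that acts on some primary microRNAs (0.44), PTGES3, a co-chaperone (0.39), TNRC6B, a partner of Argonaute (−0.63), and XRN1, an exonuclease (−0.58). None of the 26 was called in induced cells against the GFP arrays, where 4.49% of all genes were. Over the 26 genes the median differences were −0.00584, 0.03 and 0.08 in the 3 comparisons.

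Taking all 9 arrays, uninduced cells had the highest mean for 52 of the 100 genes, induced cells for 17 and the arrays labelled GFP for 31. Every uninduced array lay above all other arrays for 4 genes, MIR1910, MIR33B, MIR4737 and MIR941-1, and below them for 1, MIR3939, where 4.78% and 7.23% of all genes did. For 8 genes, MIR3198-1, MIR3939, MIR4677, MIR570, MIR571, MIR589, MIR604 and MIR606, all GFP arrays lay above the rest, against 9.72% of all genes. They lay below the rest for 5, MIR142, MIR223, MIR3143, MIR328 and MIR4737, against 7.37% of all genes. No gene had its induced arrays all above or all below the other 6, where 1.35% and 0.413% of all genes did.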

How the data were processed

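The values analysed are log2 signals as the authors deposited them, for 43550 probe sets on 9 arrays. The submitters' processing notes name RMA, limma and Affymetrix Power Tools; the sources used here do not give versions, build or probe positions. RMA corrects background, quantile-normalizes probes and gives 1 log2 value for each probe set, so low signals are compressed. No further normalization was applied. Array medians over named genes ran from 6.38 to 6.48; no 2 arrays held identical values, and the number of arrays limits the precision.

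Probe sets were named through the platform annotation (15659 with 1 symbol, 27891 with none), with symbols, hosts and sequences from RefSeq GRCh38.p14. For a gene with over 1 probe set the one of highest mean was used (4 of the 100 genes; those of MIR3130-1 differed in sign in 2 comparisons). Identical values were held by 6 of 7 probe sets of MIR877 and by all 4 of MIR3135B.

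Group means were fitted over all 9 arrays with limma 3.58.1 in R 4.3.3 (6 residual degrees of freedom, prior 3.86), adjusted by Benjamini-Hochberg over 14778 genes and called under 0.05. The fit was tested on simulated data. Named were RHOH, the 10 brightest genes, those at the edge of the selection, up to 8 highest and 8 lowest called without overlap per comparison, members of the family and myeloid lists, called pathway genes and hosts; others were named after their values were seen. The genes and lists were chosen with earlier results of these data known. Of 20 alternatives, 19 were planned. Replicate numbers were not taken to pair samples: correlations of same-numbered deviations ran from −0.03 to 0.54, the highest between replicate 1 of both RhoH groups.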

Additional observations from a re-analysis of the deposited data

How the results depend on the processing

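The counts of the 100 genes called, 0, 3 and 7 in induced minus uninduced, induced minus GFP and uninduced minus GFP, were computed under 20 alternatives with limma. Induced minus uninduced gave 3 with array weights, 1 with median centring, 2 with the dimmest genes left out and 1 with an intensity trend. It gave 1 without both RhoH replicate 1 arrays and 0 to 2 without any single array. In these settings 2.06% to 7.18% of all genes were called. The highest of these shares is of the 9852 genes tested when the dimmest were left out. Induced minus GFP gave 5 with array weights, 1 with all probe sets tested and 1 to 5 without any single array, while 1.77% to 7.96% of all genes (of all probe sets for the lowest) were called. Uninduced minus GFP gave 17 with only the 6 arrays compared, 22 with array weights and 5 to 16 without any single array, the 16 without induced replicate 3, where 19.2%, 29.3% and 9.81% to 18.1% of all genes were called. Without uninduced replicate 1 and induced replicate 3 together, an alternative added after seeing the data, the counts were 4, 5 and 16. The replicate block gave 0, 4 and 13, with 4.63%, 5.55% and 17.3% of all genes called. Every same-numbered pair would need a correlation over 0.1 to count as paired, and the lowest was −0.03, between uninduced and GFP replicate 3. Between the RhoH groups the same-numbered values were 0.54, 0.37 and 0.07, beside −0.50 to 0.40 for unlike numbers. Whether replicates of the RhoH groups belong together is not decided by these values. The median difference of uninduced minus GFP, 0.13, was 0.0232 without both RhoH replicate 1 arrays and without uninduced replicate 1 and induced replicate 3, and 0.0232 to 0.180 without any single array. The median of induced minus uninduced turned from −0.09 to 0.03 without induced replicate 3, and to 0.08 without that array and uninduced replicate 1. The median of induced minus GFP turned from 0.05 to −0.10 without induced replicate 1. The causes of these changes were not tested. In every alternative run, the calls of MIR223 against GFP in both RhoH groups stayed past the threshold with their sign. So did those of MIR3939, MIR33B, MIR3198-1 and MIR142 in uninduced minus GFP. The difference of MIR142 is tied to its selection.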
